A study of Mus musculus with 2 samples.

Results

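The genes examined were 10 that encode leukocyte adhesion receptors, of 23343 genes in the tables: the integrin alpha subunits Itgam, Itgal, Itgax, Itgad and Itga4, the integrin beta subunits Itgb2, Itgb1, Itgb7 and Itgb3, and Selplg, the selectin ligand PSGL-1. They were taken by gene symbol, and each symbol matched 1 row of each table. The cells were eosinophils, sorted as positive for CCR3 and SiglecF from the pooled bone marrow of naive, untreated C57BL6J mice. The study has 1 group of 2 independent sorts with 1 poly(A) RNA library each, called sort 1 and sort 2 here, and no other genotype, treatment, time or cell type. The sources used here state neither the age of the mice nor how many were pooled. Values are RPKM as the authors deposited them, read numbers divided by the length of the transcript and the depth of the library, so that levels of different genes can be compared per length. They are given for each sort, or as mean ± SD with n = 2 sorts.

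Integrins are heterodimers of 1 alpha and 1 beta subunit, and a subunit usually reaches the cell surface only with a partner. The beta 2 integrins pair Itgb2 (CD18) with Itgal (LFA-1), Itgam (Mac-1), Itgax (CD11c) or Itgad (CD11d) and bind ICAMs, complement fragments and fibrinogen. Itga4 pairs with Itgb1 to form VLA-4, which binds VCAM-1 and fibronectin, or with Itgb7 to form the MAdCAM-1 receptor, and both are known from the recruitment of eosinophils to inflamed tissue and gut. Selplg carries the glycans by which leukocytes roll on P-selectin before integrins arrest them.

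Sort 1 had 10087743 counted reads and sort 2 had 9264150. All 10 eosinophil markers were detected (RPKM of 1 or more in sort 1 and in sort 2), with median RPKM of 135 and 136 and summed RPKM of 3482 and 4321. Transcripts of neutrophil markers were also abundant: all 11 late granule markers in the tables and all 5 primary granule markers were detected, with summed RPKM of 4236 and 3956 for the former and 253 and 292 for the latter. The late granule markers had median RPKM of 51.7 and 33.7. Their highest, Retnlg, had a mean of 2380 RPKM and rank 1 among all genes, and the highest eosinophil marker, Ear1, had 1347 RPKM and rank 3. For the other cell types examined, summed RPKM ranged from 1.04 for stromal and endothelial markers to 248 for monocyte and macrophage markers, of which 6 of 13 were detected. The highest marker was Lyz2 for monocytes and macrophages at a mean of 148 RPKM. For T and NK cells it was Nkg7 at 10.4, the only marker detected of 11. For basophils and mast cells it was Cpa3 at 8.10, with 6 of 11 detected. For dendritic cells it was Cd74 at 4.18, with 3 of 11 detected, and for B and plasma cells Cd79b at 2.29, with 3 of 9. For megakaryocytes and platelets it was Itga2b at 2.24, with 1 of 12 detected. For erythroid cells it was Tfrc at 2.10, with 1 of 11 detected. For stroma and endothelium it was Acta2 at 0.863, with none of 10 detected. The 2 libraries stood apart in sex-linked genes, with 47487 reads of Xist in sort 1 and 5 in sort 2, and none of Kdm5d in sort 1 and 756 in sort 2. They also stood apart in Rn45s, the ribosomal RNA precursor, which took 9.07% of the reads of sort 1 and 0.963% of those of sort 2. Sort and sex of the pooled mice therefore cannot be told apart in any difference between the libraries. In bulk RNA, fewer cells of a type and less RNA per cell cannot be told apart either, and neutrophils are known to express Itgam, Itgal, Itgb2 and Selplg too. The part of neutrophil RNA in the levels below was not tested.

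Adhesion receptor transcripts were led by the 2 subunits of Mac-1. Of the 10 genes, 9 were detected, beside 30.2% of all genes. Together they took 1.22% of the reads of sort 1 (95% Wilson interval 1.21 to 1.22) and 1.44% of those of sort 2 (1.43 to 1.45). With Rn45s reads left out of the totals, an alternative added after the data were seen, these shares were 1.34% and 1.45%. Itgam alone made up 49.7% and 50.1% of the reads of the 10 genes. From high to low mean RPKM the order was Itgam, Itgb2, Itga4, Itgal, Itgb3, Selplg, Itgb7, Itgb1, Itgax and Itgad, and all 10 kept their place in both sorts. In 8 of the 9 neighbouring pairs the 2 values of the higher gene lay above both values of the lower one. The exception was Selplg and Itgb7, whose values overlapped. Some pairs were barely apart. The lower value of Itgal was 33.95 RPKM against 33.49 for the higher of Itgb3. The lower value of Itgb3 was 27.86 against 27.73 for the higher of Selplg. An exact two-sided sign test over 2 sorts cannot give a p below 0.5, so the order was not tested.

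**Figure D1:**
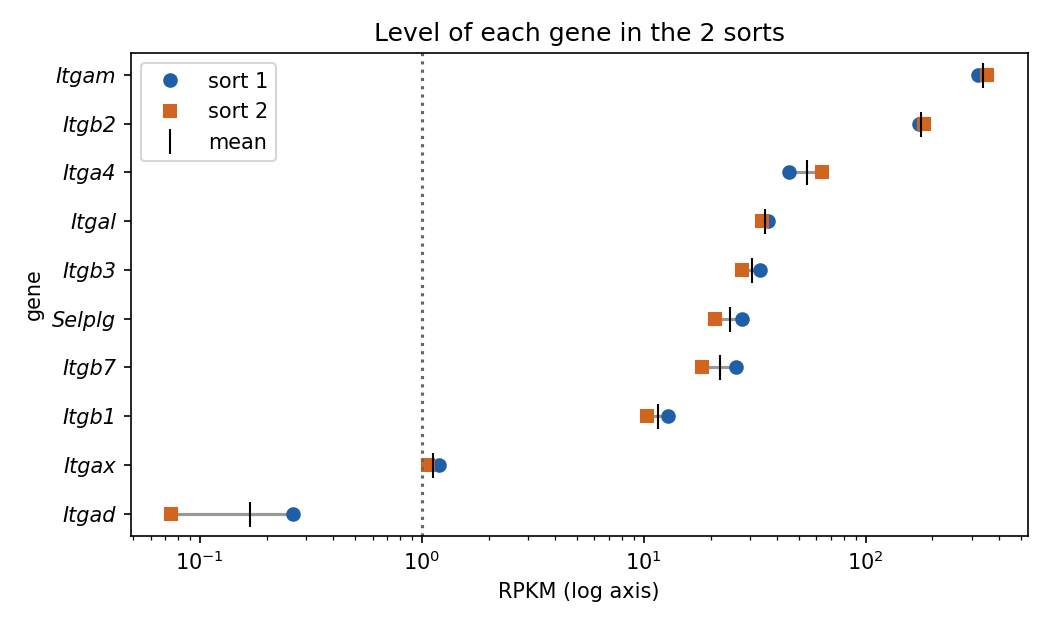
RPKM of the 10 genes in sort 1 (circles) and sort 2 (squares) on a log axis, with the mean as a tick and the detection minimum of 1 RPKM as a dotted line. Itgam lies highest at 322 and 351 RPKM, and Itgad lies below the minimum in both sorts.

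Itgam and Itgax are neighbours on chromosome 7 with very different transcript levels, and their start regions are shown here. Both are from RefSeq on GRCm38.p6, plus strand, at chr7:128062390-128062689 for Itgam and chr7:128129300-128129599 for Itgax, each with 250 bases before and 50 after the start. The start of Itgam is the one in the deposited table, and that of Itgax lies 18 bases upstream of it. Capitals mark GAGGAA or its reverse complement, the core of the sequence bound by the myeloid factor PU.1.
Itgam: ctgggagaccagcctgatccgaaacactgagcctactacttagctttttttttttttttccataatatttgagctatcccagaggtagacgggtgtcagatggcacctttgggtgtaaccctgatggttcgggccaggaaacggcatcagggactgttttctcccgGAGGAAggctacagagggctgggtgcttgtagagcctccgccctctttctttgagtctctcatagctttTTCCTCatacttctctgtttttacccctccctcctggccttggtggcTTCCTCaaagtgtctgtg
Itgax: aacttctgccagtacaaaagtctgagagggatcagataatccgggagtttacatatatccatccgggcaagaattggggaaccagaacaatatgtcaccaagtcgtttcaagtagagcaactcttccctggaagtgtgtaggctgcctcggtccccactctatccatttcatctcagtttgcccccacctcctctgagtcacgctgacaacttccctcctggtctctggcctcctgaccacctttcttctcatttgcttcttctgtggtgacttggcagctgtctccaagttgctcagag
GAGGAA occurred 3 times in the Itgam window and not in the Itgax window, on both strands searched, while 28.3% of 32851 promoter windows of the same length held it at least once and 0.685% held it 3 or more times. The Itgax window held 1 match of TGTGGT, the core bound by RUNX factors, present in 16.8% of all windows. It also held 1 match of TGAGTCA, which AP-1 factors bind, present in 5.20% of them, and 1 of AGATAA, a form of the site of GATA factors, present in 11.2%. The box of the factor Sp1, GGGCGG, present in 35.7% of windows, occurred once in the Itgam window and not in the Itgax window, and the Itgam window held none of the preceding 3. Of the remaining genes Itgb1 and Itgb7 had 1 match each to the PU.1 core and Itga4 none. Windows for 5 of the 10 genes were matched, those of Itgal, Itgad, Itgb2, Itgb3 and Selplg not. These are matches of letters in short windows, not measurements of binding, and a link between them and the transcript levels was not tested.

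Among the beta 2 integrin genes, Itgam and Itgb2 were far above the others. Itgam, the alpha subunit of the complement receptor Mac-1 (mm10 chromosome 7 from 128062640 to 128118491), had 322 RPKM in sort 1 and 351 in sort 2, a mean of 337 ± 20.4 (SD, n = 2) and rank 19 among all genes. Itgb2, the shared beta subunit (chromosome 10 from 77530348 to 77565674), had 173 and 183 RPKM, a mean of 178 ± 7.13 (SD, n = 2) and rank 37. Within each sort Itgam exceeded Itgb2, by 1.86-fold in sort 1 and 1.92-fold in sort 2.

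Itgal, the alpha subunit of the ICAM receptor LFA-1 (chromosome 7 from 127296260 to 127335137), had 36.3 and 34.0 RPKM with a mean of 35.1 ± 1.65 (SD, n = 2). Itgax, CD11c and a common marker of dendritic cells (chromosome 7 from 128129568 to 128150657), had 1.19 and 1.06 RPKM from 194 and 174 reads, just above the detection minimum in both sorts. Dendritic cell markers had summed RPKM of 8.96 and 9.28, with 3 of 11 detected and Clec10a at 0 in both sorts, and their part in the Itgax level was not tested. Itgad, CD11d (chromosome 7 from 128173946 to 128205503), had 0.262 and 0.0746 RPKM from 42 and 12 reads, under the minimum in both. Of the summed RPKM of these 4 alpha subunits, Itgam held 89.5% in sort 1 and 90.9% in sort 2. That sum was 360 and 386 RPKM, or 2.08 and 2.11 times Itgb2, a log2 ratio of 1.07 ± 0.01 (SD, n = 2).

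Itgax and Itgad are near-identical in part. Of the 50-base stretches of the Itgax transcript 9.61% also occurred in Itgad, and 9.81% of those of Itgad in Itgax, so the split of reads between these low genes is uncertain. Itgad is also overlapped on the other strand by 2 rows of the tables, 4931431B13Rik with no reads and Cox6a2 with 1 and 3. For Itgam, Itgal, Itgb1, Itgb7 and Selplg no 50-base stretch was shared with a gene at another locus. Itgb2 shared 1.16%, with a processed pseudogene, Itga4 0.381% and Itgb3 0.0872%. Itga4 is overlapped over 624 bases by the antisense gene Cerkl, which had 57 and 38 reads.

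The 4 CD11 genes lie on the same strand of chromosome 7. Itgam ends 11.1 kb before Itgax, which ends 23.3 kb before Itgad, and Itgal lies 728 kb on the other side of Itgam. Across the 11.1 kb between Itgam and Itgax the level dropped 271-fold in sort 1 and 330-fold in sort 2. From Itgal to Itgad the tables list 43 genes, and Itgam ranked first among them by mean RPKM, Itgal second, Itgax at place 19 and Itgad at place 34. The 39 genes between that are not CD11 genes had a median of 0.697 RPKM and 15 of them were detected. The highest of these was Stx4a, a plasma membrane syntaxin, at 25.3 RPKM.

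**Figure D2:**
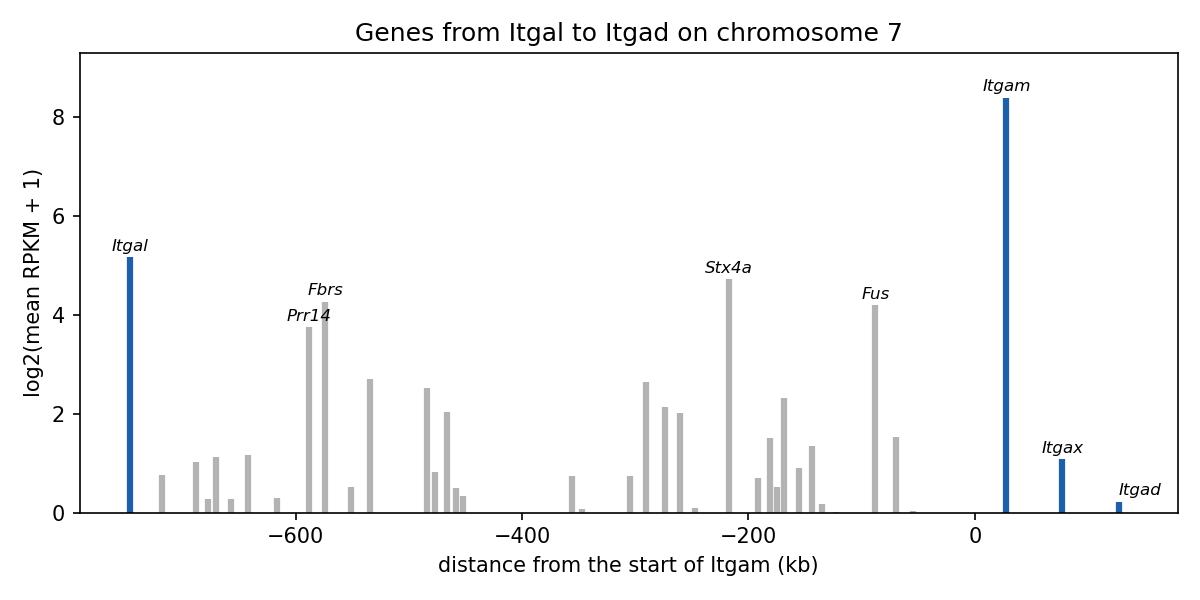
Mean RPKM over both sorts as log2(RPKM + 1) against distance in kb from the start of Itgam, for the 43 genes from Itgal to Itgad on chromosome 7, with the 4 CD11 genes in blue. Itgam stands highest, and Itgax and Itgad beside it are low, at means of 1.13 and 0.168 RPKM.

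Subunits of the alpha 4 integrins were present at intermediate levels. Itga4 (chromosome 2 from 79255426 to 79333114) had 45.2 RPKM in sort 1 and 63.5 in sort 2, with a mean of 54.3 ± 12.9 (SD, n = 2) and rank 166 among all genes. Itgb7, its partner in the gut-homing receptor (chromosome 15 from 102215995 to 102231935, minus strand), had 26.0 and 18.2 RPKM with a mean of 22.1 ± 5.49. Itgb1, its partner in VLA-4 and the common beta subunit of many matrix receptors (chromosome 8 from 128685654 to 128733579), had 12.9 and 10.3 RPKM with a mean of 11.6 ± 1.78 (SD, n = 2).

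The 3 genes did not move alike between the libraries: Itga4 was higher in sort 2, and both beta subunits were higher in sort 1. Itgb7 exceeded Itgb1 in each sort, by 2.02-fold and 1.76-fold. Itga4 was 1.16 times the sum of Itgb1 and Itgb7 in sort 1 and 2.22 times in sort 2, a log2 ratio of 0.68 ± 0.66 (SD, n = 2), so the SD over the sorts was nearly as large as the mean. Itgae, the other alpha subunit that pairs with Itgb7, was not detected at 0.304 and 0.271 RPKM.

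Itgb3 was the highest integrin beta transcript after Itgb2, while both of its alpha partners were low. Itgb3, CD61 and the beta subunit of the platelet fibrinogen receptor and of the vitronectin receptor (chromosome 11 from 104608000 to 104670471), had 33.5 RPKM in sort 1 and 27.9 in sort 2, a mean of 30.7 ± 3.99 (SD, n = 2). Itgav, the alpha subunit of the vitronectin receptor, had 4.01 and 4.38 RPKM. Itga2b, the platelet alpha subunit, had 2.44 and 2.05 RPKM. Summed, the partners reached 0.192 of the Itgb3 level in sort 1 and 0.231 in sort 2, a log2 ratio of -2.25 ± 0.19 (SD, n = 2), the opposite of the excess of alpha subunits over Itgb2. Of the 12 megakaryocyte and platelet markers only Itga2b was detected, and their summed RPKM was 3.79 and 3.08. The platelet chemokine genes Pf4 and Ppbp had 4 and 2 reads and 0 and 2 reads, and Gp6 and Tubb1 had none in either sort. The part of platelets, or of any other cell type, in the Itgb3 level was not tested.

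Selplg (chromosome 5 from 113817798 to 113830501, minus strand) had 27.7 and 21.1 RPKM, with a mean of 24.4 ± 4.73 (SD, n = 2) and rank 509 among all genes. The length behind its deposited RPKM, 2.61 kb, is greater than that of its GENCODE transcript, 1.86 kb. With the latter its mean would be 34.3 RPKM, which places it above Itgb3. For the other 9 genes the 2 lengths agreed to between 0.967 and 1.10 times.

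Other integrin subunit genes were detected in a share near that of all genes. Of 13 other alpha subunits 3 were detected, or 23.1% beside 30.2% of all genes: Itgav, Itga2b and Itga2, a collagen receptor subunit that pairs with Itgb1, at 3.20 and 3.47 RPKM. Itga6, a laminin receptor subunit, had 1.04 and 0.925 RPKM, and Itga5, the fibronectin receptor subunit, 0.565 and 0.716. The median RPKM of the list was 0.138 and 0.160, beside 0.108 and 0.0896 over all genes. At a minimum of 0.5 RPKM, 5 would count, and at 5 RPKM none. Of 5 other beta subunits 1 was detected, Itgb2l, a relative of Itgb2 known from neutrophils, at 4.77 and 4.87 RPKM. Itgb2 was 36.3-fold and 37.6-fold higher, and none of the 50-base stretches of the Itgb2l transcript occurred in a gene at another locus. Itgb4, Itgb5 and Itgb6 had at most 16 reads in a sort, and Itga7 and Itgb8 had none in either, which allows up to 3 reads in each library by counting error. Between the libraries 1 of the 11 alpha and 4 beta genes tested was called higher in sort 1 (background 4.95% of genes tested), and none higher in sort 2, beside 3.05%. It was Itgb4, with 16 reads in sort 1 and none in sort 2 and an adjusted p of 0.0808 by edgeR's exact test.

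**Figure D3:**
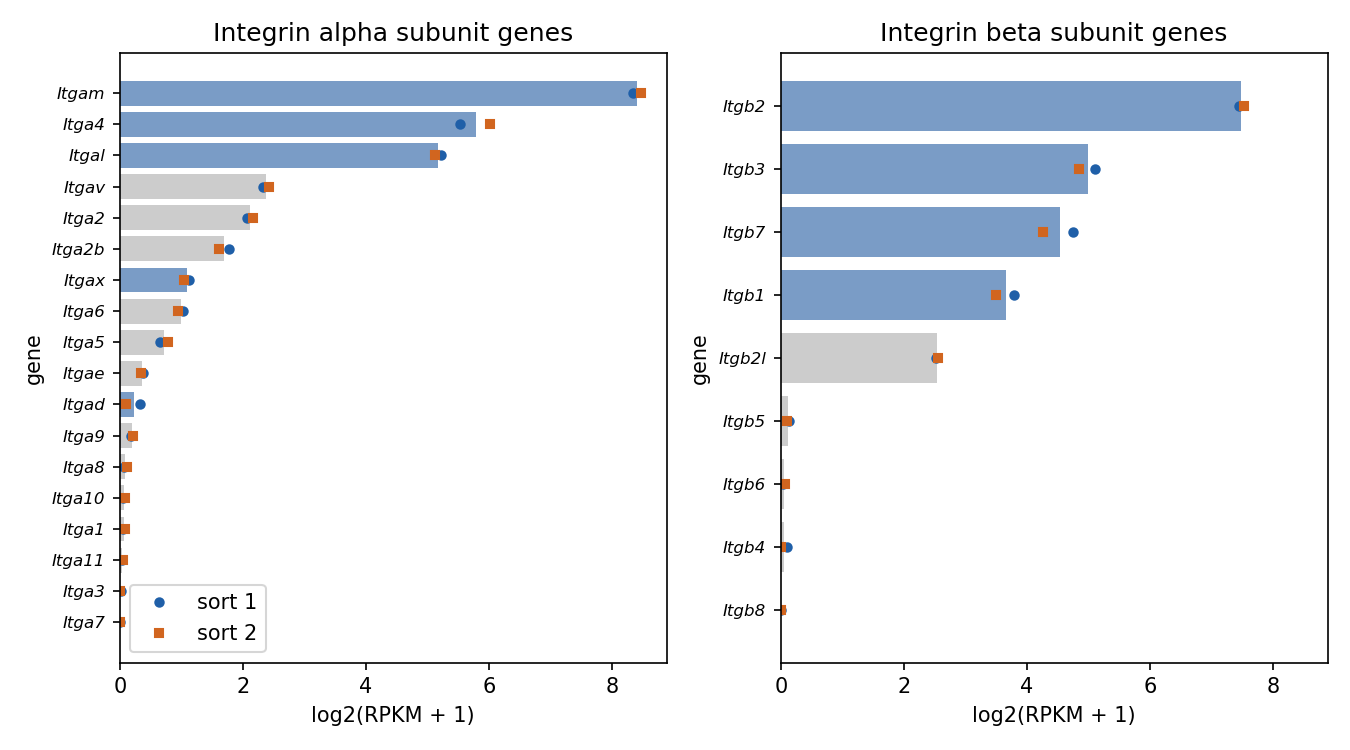
Mean level over both sorts (bars) and each sort (points) as log2(RPKM + 1) for 18 alpha and 9 beta subunit genes, with the subunits among the 10 genes in blue and the others in grey. Of the grey genes only Itgav, Itga2, Itga2b and Itgb2l were detected.

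Genes that connect integrins to the cytoskeleton were well represented. Of 28 activation and adaptor genes 23 were detected, or 82.1% beside 30.2% of all genes. Their median RPKM was 22.8 and 17.4, beside medians of 0.108 and 0.0896 over all genes. Rac2, a small GTPase of blood cells, led with 73.6 ± 11.7 RPKM (SD, n = 2), followed by Cd47, an integrin-associated membrane protein, with 64.3 ± 13.8. Next were Apbb1ip, the Rap1 effector RIAM, with 58.2 ± 12.7, Fyb, the adaptor ADAP, with 50.5 ± 0.0245, Flna, filamin A, with 41.8 ± 8.79, and Pxn, paxillin, with 36.5 ± 5.96 (SD, n = 2).

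The activators that bind beta tails were each represented by 1 of several related genes. Tln1, talin-1, had 37.8 and 27.8 RPKM and Fermt3, the kindlin of blood cells, had 24.5 and 16.6. Their relatives were near 0, Tln2 with 0 and 8 reads, Fermt1 with 31 and 12, and Fermt2 with none. In the same way Skap2 had 32.6 and 33.3 RPKM and Skap1 no read, and the kinase Ptk2b had 22.8 and 18.1 RPKM and Ptk2 4 and 10 reads. Other related genes of the list were detected together. Rap1a had 14.9 and 21.6 RPKM and Rap1b 22.9 and 24.5, and Parvg had 24.7 and 15.8 RPKM and Parvb 4.44 and 3.68. Of the 25 genes of the list that were tested between the libraries, 1, Fermt1, was called higher in sort 1 (background 4.95% of genes tested), with an adjusted p of 0.878 by edgeR's exact test. None was called higher in sort 2, beside 3.05%. Calls follow the rule given with the comparison of the libraries further on, where the limit of edgeR's test is also given.

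Selectin ligand synthesis was represented at lower levels. Of 15 genes 9 were detected, or 60% beside 30.2% of all genes. The median RPKM of the list was 1.78 and 1.56, below that of the activation and adaptor genes and above the 0.108 and 0.0896 over all genes. Gcnt1, which builds the branched core 2 glycan on PSGL-1, led with 17.6 ± 0.313 RPKM (SD, n = 2), followed by B4galt1 with 11.05 ± 1.82, C1galt1, which extends the core 1 glycan, with 8.20 ± 2.86, St3gal4, a sialyltransferase of selectin ligands, with 5.03 ± 1.36, Slc35c1, the GDP-fucose transporter, with 4.39 ± 0.384, and Fut4, a fucosyltransferase, with 2.93 ± 0.285. Fut7, the main fucosyltransferase of selectin ligands, had 1.06 and 1.09 RPKM, just past the minimum. Of the tyrosine sulfotransferases Tpst2 was detected at 1.78 and 1.56 RPKM, and Tpst1 was not, with 22 and 16 reads.

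Of 11 selectins and other selectin ligands 6 were detected, or 54.5% beside 30.2% of all genes. Cd44, a hyaluronan receptor that can carry selectin ligands, had 67.8 ± 1.63 RPKM, Spn, CD43, 11.8 ± 0.440, and Glg1, the E-selectin ligand ESL-1, 9.75 ± 0.0135 (SD, n = 2). Selp, P-selectin, had 1.99 and 2.01 RPKM, and Cd34 had 1.36 and 1.31. Neither in this list, with 8 genes tested between the libraries, nor among the 14 tested genes of ligand synthesis was one called. Over all tested genes, calls made up 4.95% with the excess in sort 1 and 3.05% with the excess in sort 2. At these rates a list this short may well hold none, so the absence of calls does not show that its genes were alike between the libraries. The level of Selplg was below that of Cd44 and above that of Spn in both sorts.

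Between the libraries, 9 of the 10 genes differed by less than 1.5-fold, and 7 of these 9 by more than counting error. The exact binomial test on the reads of the 2 libraries compares those libraries and not conditions, and it was adjusted by Benjamini and Hochberg over 12347 genes. At an adjusted p under 0.05 and at any fold, 3 of the 10 genes were higher in sort 2, Itga4, Itgam and Itgb2, beside 22.5% of all tested genes, and 5 were higher in sort 1, beside 21.9%. With a fold of at least 2 as well, 1 of the 10 was called, Itgad, beside 4.95% of tested genes called higher in sort 1, and none was called higher in sort 2, beside 3.05%. For edgeR's exact test the dispersion was estimated from both libraries, taken as replicates. The differences under test are part of that dispersion, so few genes can pass, and not passing does not show that the libraries are alike. By this test none of the 10 passed an adjusted p of 0.05, beside 0.267% of tested genes. Of the 10, 1, Itgad, had an unadjusted p under 0.05, beside 6.2%.

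Itga4 was 1.47-fold higher in sort 2 (95% counting interval 1.445 to 1.501), Itgam 1.14-fold (1.13 to 1.15) and Itgb2 1.11-fold (1.09 to 1.13). Higher in sort 1 were Itgb7 by 1.36-fold (1.28 to 1.44), Selplg by 1.26-fold (1.19 to 1.33), Itgb1 by 1.19-fold (1.11 to 1.26) and Itgb3 by 1.15-fold (1.11 to 1.19). Itgad was 3.35-fold higher in sort 1, with a wide interval of 1.73 to 6.99 from its few reads. Macrophages are known to express Itgad, and the summed RPKM of monocyte and macrophage markers was 248 in sort 1 and 178 in sort 2, of which Lyz2, also known from neutrophils, held 175 and 121. Of the 12 of these markers tested between the libraries, 9 had ratios below 0 and 3 above. Among those below were Cd163 at 163 and 35 reads, C1qb at 203 and 90 and C1qa at 16 and 0. Those above were Ccr2 at 51 and 93, F13a1 at 73 and 120 and Cx3cr1 at 2 and 26. The part of such cells in the Itgad difference was not tested. The intervals of Itgal, 0.9497 to 1.013 for sort 2 over sort 1, and Itgax, 0.760 to 1.16, included a ratio of 1. On the log2 scale with a prior count of 2 the 9 detected genes lay between -0.44 and 0.56, and 90% of the genes detected in both sorts lay between -0.64 and 0.60. Itgad, not detected, lay at -1.59, and 90% of all 12347 tested genes lay between -1.09 and 0.89. These intervals cover counting error only, and each sort is 1 library.

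**Figure D4:**
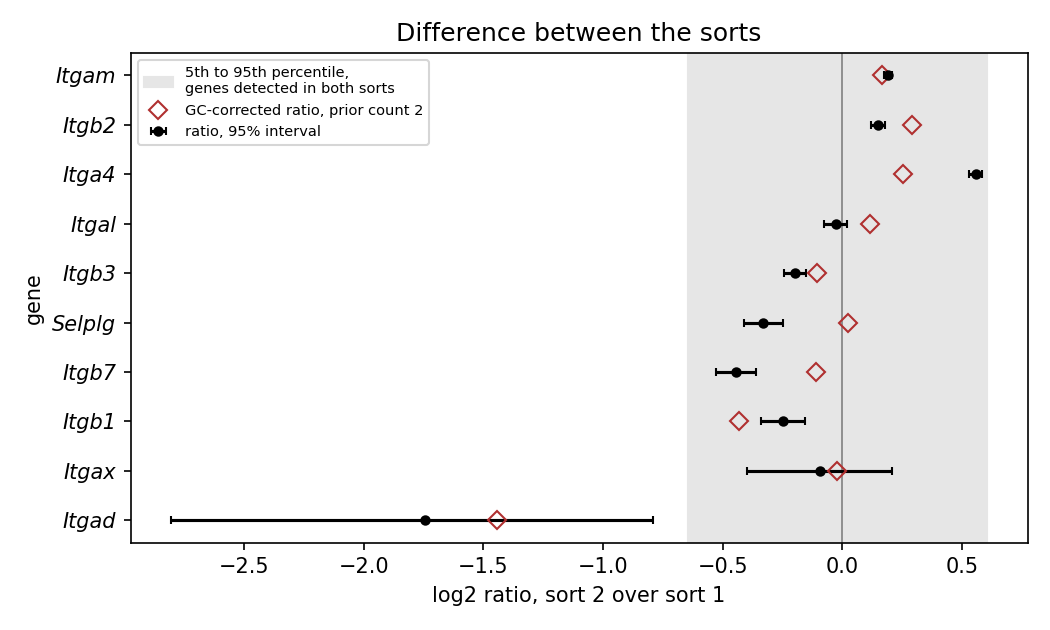
Log2 ratio of sort 2 over sort 1 for the 10 genes (points, with 95% counting intervals), and the ratio after correction for transcript GC content (diamonds), over a grey band from the 5th to the 95th percentile of genes detected in both sorts. Itgad alone lies outside the band, and its interval does not reach the band. Itgad is not itself a detected gene, and over all 12347 tested genes the 5th and 95th percentiles were wider, at -1.09 and 0.89.

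The ratios moved with the GC content of the transcripts. Across the 10 genes, which share both libraries, the Spearman correlation of the log2 ratio with GC content was -0.67, and across 12164 tested genes with a GC value it was -0.43. Itga4, the gene highest in sort 2, had the lowest GC content at 41.1%, and Selplg and Itgb7 had the highest at 58.6% and 58.0%. After a smooth GC trend over all tested genes was removed, the log2 ratio of Itga4 went from 0.56 to 0.26, that of Itgb7 from -0.44 to -0.11 and that of Selplg from -0.33 to 0.02. Those of Itgb1, from -0.25 to -0.43, and Itgb2, from 0.15 to 0.29, became larger.

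**Figure D5:**
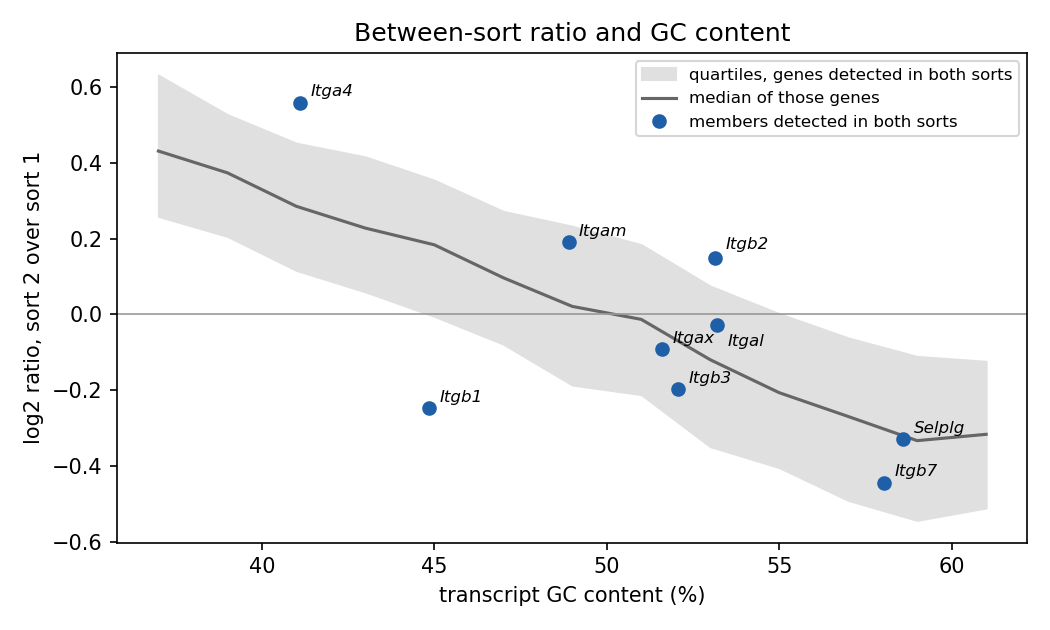
Log2 ratio of sort 2 over sort 1 against transcript GC content in percent for the 9 genes detected in both sorts (points), over the median (line) and quartiles (band) of all genes detected in both sorts in bins of GC content. Selplg lies on the median of genes with like GC content, while Itga4 and Itgb2 lie above the band and Itgb1 below it.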

How the data were processed

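Eosinophil RNA of 2 sorts was analysed, 1 stranded poly(A) library each. Reads were aligned with STAR 2.4.0c to mm10, per the submitters' processing notes. The sources used here name neither the counting program nor its strand setting. Read counts and RPKM values were deposited by the authors, 1 row per set of RefSeq transcripts that begin and end alike, and were summed per gene symbol, 23343 genes from 26099 rows. The deposited RPKM implied a depth of 40.4 and 40.5 (in units of 1e6 reads), above the counted totals of 10087743 and 9264150. RPKM therefore runs low against counted reads in both libraries, somewhat more so in sort 2. The detection minimum of 1 RPKM is stricter than it would be on counted reads. The labels name independent sorts and not separate mice, so the spread between them may be partly technical.

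The 10 genes and all lists were chosen with earlier results of these data known. Named genes were the 10, up to the 6 highest detected of each related list, partner subunits, relatives of these and markers where a result turned on them. Of the genes this rule takes, 1 is not reported here. Levels have no test, and likeness of pattern cannot be measured over 2 libraries. The libraries were compared with an exact two-sided binomial test (SciPy 1.17.1) given TMM-scaled library sizes (edgeR 4.0.16), for every gene with a summed count of 10 or more. It was checked on simulated counts with sampling noise only, so the check does not cover further variation between libraries. Log2 ratios used a prior count of 2. GC content and length were those of GENCODE transcripts with the same RefSeq accession, found for 98.5% of tested genes, and the GC trend was a lowess curve of span 0.3. Shared sequence was sought as exact 50-base stretches on both strands of all GENCODE transcripts, leaving out genes that overlap the gene itself.

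Alternatives were other minimums, CPM, TPM, 1 row per gene, DESeq2 1.42.0 size factors, total counts, other folds, edgeR's exact test, GC correction and each sort alone. RPKM from GENCODE length was added after the data were seen.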

Additional observations from a re-analysis of the deposited data

How the results depend on the processing

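The count of detected genes, 9, was 9 at a minimum of 0.5 RPKM, 8 at 5 RPKM and 10 at a CPM of at least 1, and 9 in each sort alone. The log2 ratio of alpha subunits over Itgb2 moved from 1.07 to 1.12 with GENCODE lengths, and ranged from 1.06 to 1.08 when either sort was left out. For Itga4 over Itgb1 and Itgb7 it ranged from 0.22 to 1.15, and for Itgav and Itga2b over Itgb3 from -2.38 to -2.12. GENCODE lengths exchanged the places of Selplg and Itgb3 and left 7 of 9 neighbouring pairs apart. The counts of genes called between the sorts were 1 and 0 under both other scalings, both other read minimums, a fold of 1.5 and GC correction. Without a fold minimum they were 5 higher in sort 1 and 3 higher in sort 2. With edgeR's exact test they were 0 and 0, and Itgad had an adjusted p of 0.423 there. The dispersion of that test includes the differences under test, as described above. GC correction reversed Selplg, to a log2 ratio of 0.024, which no longer passed the binomial test, and Itgal, at -0.03 before and not past the test, had 0.12 after it and passed. The cause of these changes was not tested. No paired analysis was possible because there is 1 group. With 42 and 12 reads, depth limits what can be said of Itgad.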

Other observations

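Among ligands of the integrins, 4 of 18 genes were detected in both sorts, or 22.2% beside 30.2% of all genes. Thbs1, thrombospondin, an extracellular matrix protein bound by several integrins, had 22.3 RPKM in sort 1 and 20.1 in sort 2. Vcam1, the ligand of VLA-4, had 9.26 and 8.58 RPKM. Icam2, a ligand of LFA-1, had 5.41 and 3.13 RPKM, and Icam1, a ligand of LFA-1 and Mac-1, had 2.06 and 2.90. Fn1, fibronectin, lay just under the minimum at 0.925 and 0.943 RPKM. Madcam1, the ligand of the integrin of Itga4 and Itgb7, had 1 read in sort 1 and none in sort 2, and the fibrinogen genes Fga, Fgb and Fgg had none in either. Of 11 ligand genes tested between the libraries, 2 were called higher in sort 2 (background 3.05% of genes tested), Spp1 with 0 and 17 reads and Postn with 1 and 12, and neither passed an adjusted p of 0.05 by edgeR's exact test. Vcam1 is also known from marrow macrophages and stroma. In these libraries 6 of 13 monocyte and macrophage markers were detected. Lyz2 had 175 and 121 RPKM, Ly6c2 38.1 and 33.0, and Csf1r 19.8 and 15.0. Cd68 had 5.78 and 3.40 RPKM, C1qb 4.72 and 2.09, and Mrc1 1.34 and 1.14. Cd163, a macrophage receptor, was not detected at 0.915 and 0.204 RPKM, and none of 10 stromal and endothelial markers was detected. The part of such cells in the Vcam1 level was not tested.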
